A study of Mus musculus with 29 samples.

Results

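The HOX-cluster miRNAs are 5 mature microRNAs whose hairpins lie inside the clusters of Hox genes: mmu-miR-10a-5p, mmu-miR-10b-5p, mmu-miR-196a-5p, mmu-miR-196b-5p and mmu-miR-615-3p, written below without the species prefix. They were taken by name from a table of 1183 mouse miRNAs, and all 5 were present with a value for every library, among 695 miRNAs with complete values. Small RNA was sequenced from serum and from the tibialis anterior muscle, a muscle of the front of the lower leg, in C57BL/6 mice. The groups were old mice of 24 months, mice of 6 months with muscle atrophy induced by disuse, and young control mice of 6 months. Each group had 5 libraries of each source, except old serum with 4, which makes 29 libraries. How disuse was imposed is not given in the sources used here. No label says that numbered libraries came from separate animals, so every p-value below measures only how far these libraries spread, which may be technical. No label says that serum and muscle came from the same animals.

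Hox genes encode transcription factors that set positional identity along the body axis, and the miRNAs between them are transcribed in related regional patterns. miRNAs repress messenger RNAs that pair with their seed, the bases near the 5′ end, and the miR-196 family is known in mouse to cleave the messenger RNA of Hoxb8 and to be present in the embryonic hindlimb. The miR-10 family is an old animal family with Hox targets reported in zebrafish and in human cells, and miR-615 comes from an intron of Hoxc5. In serum, miRNAs are carried in vesicles and protein complexes and come from many tissues and blood cells.

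The mature sequences are shown because 4 of the 5 members form pairs that differ by 1 base outside the seed, so that the assignment of a read to a member rests on that base. They are RefSeq sequences on GRCm38.p6, 5′ to 3′, with the seed (bases 2 to 8) in capitals.

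miR-10a-5p: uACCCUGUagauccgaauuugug

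miR-10b-5p: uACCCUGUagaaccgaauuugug

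miR-196a-5p: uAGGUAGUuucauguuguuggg

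miR-196b-5p: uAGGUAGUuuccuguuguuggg

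miR-615-3p: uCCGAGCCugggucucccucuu

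miR-10a-5p and miR-10b-5p share 22 of 23 bases and differ by U12A, counted from the 5′ end with the base of miR-10a-5p first. miR-196a-5p and miR-196b-5p share 21 of 22 bases and differ by A12C, with the base of miR-196a-5p first. Among the 1008 names of the table that matched a RefSeq mature sequence, the seed ACCCUGU was held only by miR-10a-5p and miR-10b-5p, AGGUAGU only by miR-196a-5p and miR-196b-5p, and CCGAGCC only by miR-615-3p. The GC content was 43.5% for both miR-10 members, 40.9% for miR-196a-5p, 45.5% for miR-196b-5p and 63.6% for miR-615-3p. The rule by which reads with a mismatch or several matches were assigned is not given in the sources used here, so reads of a pair may have been split or moved between its members.

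The hairpins spread over 4 Hox clusters on mm10. Mir10a, which gives miR-10a-5p at chr11:96317186-96317208 on the plus strand, lies between Hoxb5 and Hoxb4, 993 bases from Hoxb4, and overlaps no gene model on its strand. Mir10b gives miR-10b-5p at chr2:74726074-74726096 on the plus strand, inside the gene models of Hoxd3 and Hoxd4 and outside their exons. miR-196a-5p has 2 sources of the same sequence, which the counts cannot tell apart. They are Mir196a-1 at chr11:96265187-96265208, between Hoxb13 and Hoxb9, and Mir196a-2 at chr15:102973365-102973386, between Hoxc10 and Hoxc9 and inside a long gene model of Hoxc5, both on the plus strand. Mir196b gives miR-196b-5p at chr6:52230129-52230150 on the minus strand, where it overlaps an exon of a Hoxa9 gene model. Mir615 gives miR-615-3p at chr15:103014969-103014990 on the plus strand, inside Hoxc5 and outside its exons.

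Depth set what could be seen. Total counts per library were 45176 to 309133 in serum and 254624 to 5943445 in muscle. A count of 0 allows up to 3 counts, or 9.70 to 66.4 CPM (counts per 1000000 counts of the library) in serum and 0.505 to 11.8 CPM in muscle. Such limits and the counting intervals below cover counting error only, because reads amplified by PCR and counted without molecular identifiers can be copies of each other. The muscle libraries under 1000000 counts were disuse muscle 3 and young muscle 1, 3 and 4. The labelled sources were checked by their marker miRNAs: the summed level of 6 striated muscle miRNAs was 636 to 4654 CPM in serum and 377020 to 523946 CPM in muscle. In serum, miR-208b-3p of that list was at 0 in the old and young groups, and miR-499-5p in the old and disuse groups. The summed level of 3 erythrocyte miRNAs was 4150 to 25311 CPM in serum and 26.6 to 119 CPM in muscle. A list of 4 leukocyte miRNAs was higher in muscle, with group medians of 12665 to 14532 CPM in serum and 23769 to 26353 CPM in muscle.

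The HOX-cluster miRNAs split by family between serum and muscle. The miR-10 pair made up 20.0% ± 5.51 of all counts in old serum (SD, n = 4), 18.3% ± 3.16 in disuse serum and 13.3% ± 6.54 in young serum (SD, n = 5 each). The same pair made up 0.757% ± 0.326 in old muscle, 0.612% ± 0.325 in disuse muscle and 1.18% ± 0.592 in young muscle (SD, n = 5 each). The miR-196 pair ran the other way, with 0.000141% ± 0.000283 in old serum, 0.00337% ± 0.00169 in disuse serum and 0.00132% ± 0.000781 in young serum. In muscle that pair held 0.311% ± 0.0943 of the counts in old, 0.233% ± 0.0371 in disuse and 0.300% ± 0.0699 in young libraries. miR-615-3p held 0.0464% ± 0.00392 of the counts of old muscle, 0.0504% ± 0.00593 of disuse muscle and 0.0473% ± 0.0115 of young muscle.

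**Figure D1:**
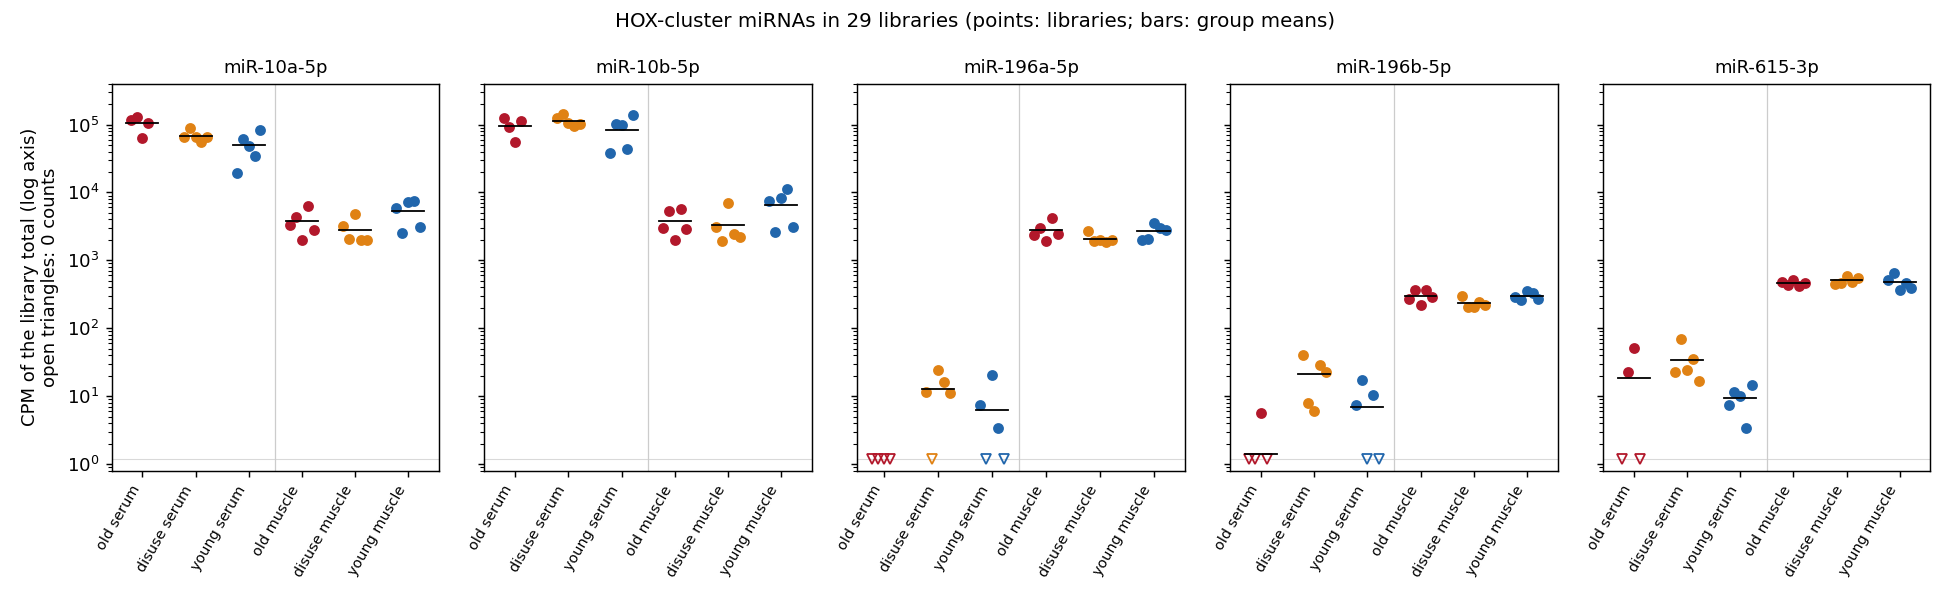
CPM of the library total (log axis) of each HOX-cluster miRNA in the 29 libraries, by group; points are libraries, bars are group means and open triangles are libraries with 0 counts. The miR-10 members lie at 19355 CPM or more in every serum library and at 11279 CPM or less in every muscle library. miR-196a-5p, miR-196b-5p and miR-615-3p lie at 70.2 CPM or less in every serum library and at 206 CPM or more in every muscle library. The share of all miRNAs with no such overlap is not given here.

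miR-10b-5p had 123584, 90615, 55672 and 113512 CPM in old serum, 125704, 144155, 105355, 94697 and 100842 CPM in disuse serum, and 38546, 100886, 98153, 43030 and 136529 CPM in young serum. By rank it was between the first and the sixth most counted miRNA of each serum library. In muscle its levels were 3021, 5263, 1988, 5778 and 2894 CPM in old, 3121, 1945, 6940, 2436 and 2237 CPM in disuse, and 7542, 2582, 8185, 11279 and 3144 CPM in young libraries. No serum library overlapped a muscle library, and the share of all miRNAs with no such overlap is not given here. Within each source the 3 groups overlapped.

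miR-10a-5p had 117281, 129997, 62617 and 105144 CPM in old serum, 66539, 88273, 66306, 55413 and 66364 CPM in disuse serum, and 19355, 61170, 47611, 34719 and 82630 CPM in young serum. Its mean order was old serum, disuse serum and young serum, and neighbours in that order overlapped. Its ranks were 3 to 4 in old, 4 to 5 in disuse and 4 to 17 in young serum. In muscle it had 3352, 4400, 1999, 6317 and 2825 CPM in old, 3165, 2026, 4756, 1981 and 1977 CPM in disuse, and 5966, 2497, 7141, 7531 and 3137 CPM in young libraries. The highest muscle library, young muscle 4, was still below the lowest serum library, young serum 1.

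miR-196a-5p, the more counted member of its pair in muscle, had 2391, 3006, 1934, 4245 and 2478 CPM in old, 2691, 1907, 2007, 1873 and 1972 CPM in disuse, and 1990, 2093, 3578, 3031 and 2791 CPM in young muscle. In serum it had 0 counts in all 4 old libraries, 2, 0, 4, 5 and 2 counts in disuse and 1, 0, 2, 1 and 0 counts in young libraries. The muscle groups overlapped, and the serum counts of each library are at a level where a few molecules decide the value. miR-196b-5p had 271, 368, 220, 366 and 288 CPM in old, 293, 206, 208, 247 and 222 CPM in disuse, and 291, 257, 358, 332 and 270 CPM in young muscle. In serum its counts were 0, 0, 1 and 0 in old, 7, 1, 1, 9 and 4 in disuse, and 1, 3, 0, 3 and 0 in young libraries. miR-615-3p had 475, 437, 521, 419 and 467 CPM in old, 448, 468, 589, 472 and 542 CPM in disuse, and 511, 651, 362, 455 and 386 CPM in young muscle; the 3 groups overlapped. Its serum counts were 0, 6, 9 and 0 in old, 4, 9, 4, 11 and 3 in disuse, and 1, 2, 1, 1 and 1 in young libraries.

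Serum was compared with muscle within each condition with edgeR's quasi-likelihood test, Benjamini-Hochberg adjusted over all miRNAs tested, at an adjusted p under 0.05. Both miR-10 members passed in each of the 3 conditions, where most miRNAs did so as well: 69.3% of all miRNAs tested passed in the old, 86.5% in the disuse and 76.3% in the young comparison. miR-196a-5p, miR-196b-5p and miR-615-3p were too low in serum for the filter on low counts and entered these tests only through muscle, where they were high, so their levels are described without a test. RNA extraction and RNA input (10 ng for serum, 2 µg for muscle) differed between the sources in every library, so their part in the differences and that of the source cannot be told apart.

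The miR-10 members were higher in serum. On the log2 scale, miR-10a-5p was higher by 4.47 ± 0.33 (SE) in old serum than in old muscle (edgeR adjusted p = 8.67e-11), by 4.23 ± 0.27 in the disuse comparison (edgeR adjusted p = 2.26e-10) and by 2.91 ± 0.42 in the young comparison (edgeR adjusted p = 2.79e-06). miR-10b-5p was higher by 4.31 ± 0.31 in old (edgeR adjusted p = 6.22e-11), 4.71 ± 0.31 in disuse (edgeR adjusted p = 3.68e-10) and 3.33 ± 0.45 in young serum (edgeR adjusted p = 1.10e-06). The median log2 fold change over all miRNAs tested was -0.87 in the old, -0.36 in the disuse and -0.34 in the young comparison, and -0.48, 0.13 and 0.17 when libraries were scaled by their totals. The miR-10 values lie well above those medians under both scalings.

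miR-196a-5p, miR-196b-5p and miR-615-3p had lower CPM in every serum library than in any muscle library. The share of all miRNAs with no such overlap is not given here. Of all miRNAs tested, 69.3% to 86.5% passed between the sources. With 0 counts over all 4 old serum libraries, miR-196a-5p was at least 527-fold lower in old serum than in old muscle, taken against 3 counts over the group. Without old serum 2, the deepest library of that group, the limit was 283-fold. In the other conditions the muscle mean over the pooled serum level was 154 (95% Poisson interval 89.9 to 289, 13 counts) in disuse and 517 (202 to 1898, 4 counts) in young mice. For miR-196b-5p this ratio was 170 (30.6 to 6728, a single count) in old, 10.2 (6.75 to 16.3, 22 counts) in disuse and 33.1 (16.0 to 82.2, 7 counts) in young mice. For miR-615-3p it was 17.4 (10.5 to 31.1, 15 counts) in old, 15.5 (10.95 to 22.9, 31 counts) in disuse and 60.5 (27.8 to 165, 6 counts) in young mice. These intervals cover counting error of the serum counts and not the spread between libraries.

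The balance within the miR-196 pair read differently in the counts of each source. Over all 14 serum libraries miR-196b-5p took 30 of the 47 miR-196 counts, or 63.8% (95% Clopper-Pearson interval 48.5 to 77.3), against 8947 of 89354, or 10.0% (9.82 to 10.2), over the 15 muscle libraries. This share was chosen after its values were seen, and with 47 counts in all it has no test over libraries. In muscle the log2 ratio of miR-196b-5p to miR-196a-5p counts was -3.19 ± 0.20 in old, -3.15 ± 0.13 in disuse and -3.13 ± 0.24 in young muscle (SD, n = 5 each).

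Within the miR-10 pair, miR-10b-5p was lowest relative to miR-10a-5p in old serum. The ratio of miR-10b-5p to miR-10a-5p counts was 1.05, 0.697, 0.889 and 1.08 in the old serum libraries, 1.89, 1.63, 1.59, 1.71 and 1.52 in disuse serum, and 1.99, 1.65, 2.06, 1.24 and 1.65 in young serum. All 4 old libraries lay below every disuse and every young library. On the log2 scale the means were -0.13 ± 0.29 in old serum, 0.73 ± 0.12 in disuse serum and 0.76 ± 0.29 in young serum (SD). A ratio within a library does not depend on depth scaling, although it does depend on how reads of the pair were assigned.

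Old serum was lower than young serum by 0.88 (log2 difference -0.88, exact two-sided permutation p = 0.0159, adjusted p = 0.0794 over the 15 ratio comparisons) and lower than disuse serum by nearly as much (difference -0.86, exact permutation p = 0.0159, adjusted p = 0.0794). A p of 0.0159 is the smallest that 4 libraries against 5 allow, and neither comparison passed after adjustment. Leaving out any single library kept the differences between -0.997 and -0.753 against young serum and between -0.94 and -0.73 against disuse serum. Disuse serum differed from young serum by -0.02 (exact permutation p = 0.849). In muscle the ratio averaged 0.00 ± 0.16 in old, 0.19 ± 0.25 in disuse and 0.23 ± 0.24 in young libraries on the log2 scale (SD, n = 5 each), and none of the 3 muscle comparisons passed, with exact permutation p values of 0.111 for old against young, 0.738 for disuse against young and 0.214 for old against disuse.

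**Figure D2:**
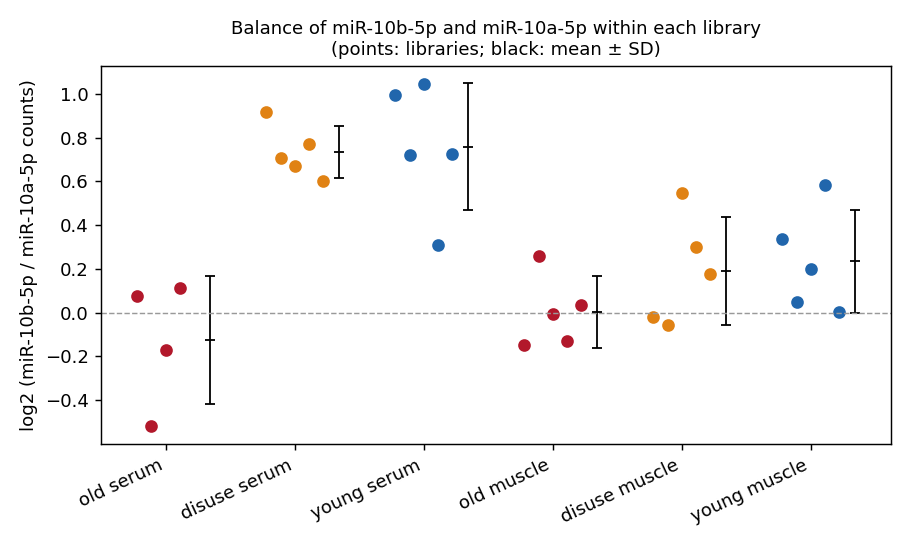
Log2 ratio of miR-10b-5p to miR-10a-5p counts in each library, by group; points are libraries and black bars are the mean ± SD. The 4 old serum libraries lie at -0.52 to 0.11, below the disuse serum libraries at 0.60 to 0.92 and the young serum libraries at 0.31 to 1.04.

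Serum and muscle differed in this ratio in the disuse condition by 0.55, with no overlap (exact permutation p = 0.00794, the smallest that 5 against 5 allow, adjusted p = 0.0794). In young mice the difference was 0.52 (exact permutation p = 0.0238, adjusted p = 0.0893), and in old mice it was -0.13 (exact permutation p = 0.492). None of the 15 ratio comparisons passed after adjustment. The remaining ones were the miR-196 balance in muscle, with exact permutation p values of 0.714 to 0.881, and the ratio of miR-10b-5p to the miR-196 pair in muscle. That ratio averaged 0.22 ± 0.29 in old, 0.36 ± 0.73 in disuse and 0.94 ± 0.83 in young muscle on the log2 scale (SD, n = 5 each), with exact permutation p values of 0.127 for old against young, 0.238 for disuse against young and 0.849 for old against disuse.

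Within muscle no HOX-cluster miRNA passed in any comparison of groups by edgeR's test. For old against young muscle 0 of 5 passed, where 5.87% of all 341 miRNAs tested did. At an unadjusted p under 0.05 it was 1 of 5, near the 21.4% of all miRNAs tested, and DESeq2 called 0 of 5. miR-10b-5p had the largest difference of the 5, -0.80 ± 0.35 on the log2 scale (edgeR adjusted p = 0.180), and miR-10a-5p had -0.49 ± 0.29 (edgeR adjusted p = 0.343). miR-196a-5p, miR-196b-5p and miR-615-3p had 0.04 ± 0.19, 0.00 ± 0.17 and -0.03 ± 0.19. The 95% intervals of these last 3, from the SE by a normal approximation, were -0.33 to 0.40, -0.34 to 0.33 and -0.40 to 0.33. Such intervals are somewhat narrower than the F test behind the p-values would give.

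For disuse against young muscle 0 of 5 passed, against a background of 0.293%, with 2 of 5 at an unadjusted p under 0.05 (8.5% of all miRNAs tested) and 0 by DESeq2. miR-10a-5p had -0.82 ± 0.29 (edgeR adjusted p = 0.267) and miR-10b-5p -0.88 ± 0.35 (edgeR adjusted p = 0.442). miR-196a-5p had -0.28 ± 0.19, miR-196b-5p -0.27 ± 0.17 and miR-615-3p 0.16 ± 0.19. For old against disuse muscle 0 of 5 passed, against a background of 3.52%, with 0 at an unadjusted p under 0.05 (14.1% of all) and 0 by DESeq2. The 5 differences there ran from -0.20 for miR-615-3p to 0.34 for miR-10a-5p.

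The miR-10 levels in muscle moved with library depth. In the 4 muscle libraries under 1000000 counts, of which 3 were young, miR-10a-5p lay at 4756 to 7531 CPM and miR-10b-5p at 6940 to 11279 CPM, against 1977 to 6317 CPM and 1945 to 5778 CPM in the 11 deeper ones. With only the deeper libraries (5 old, 4 disuse and 2 young; a choice made after seeing the data), the old against young difference changed direction, to 0.33 for miR-10a-5p (edgeR adjusted p = 0.616) and 0.30 for miR-10b-5p (edgeR adjusted p = 0.618). The disuse against young difference shrank to -0.25 for miR-10a-5p and -0.19 for miR-10b-5p. With all 15 libraries thinned at random to the depth of the shallowest, the old against young differences were -0.52 for miR-10a-5p and -0.79 for miR-10b-5p, and the disuse against young differences -0.83 and -0.89, all about as large as without thinning. What else differs in the shallow libraries was not tested. miR-615-3p did not follow this split, with 362 to 589 CPM in the shallow and 386 to 651 CPM in the deeper libraries.

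**Figure D3:**
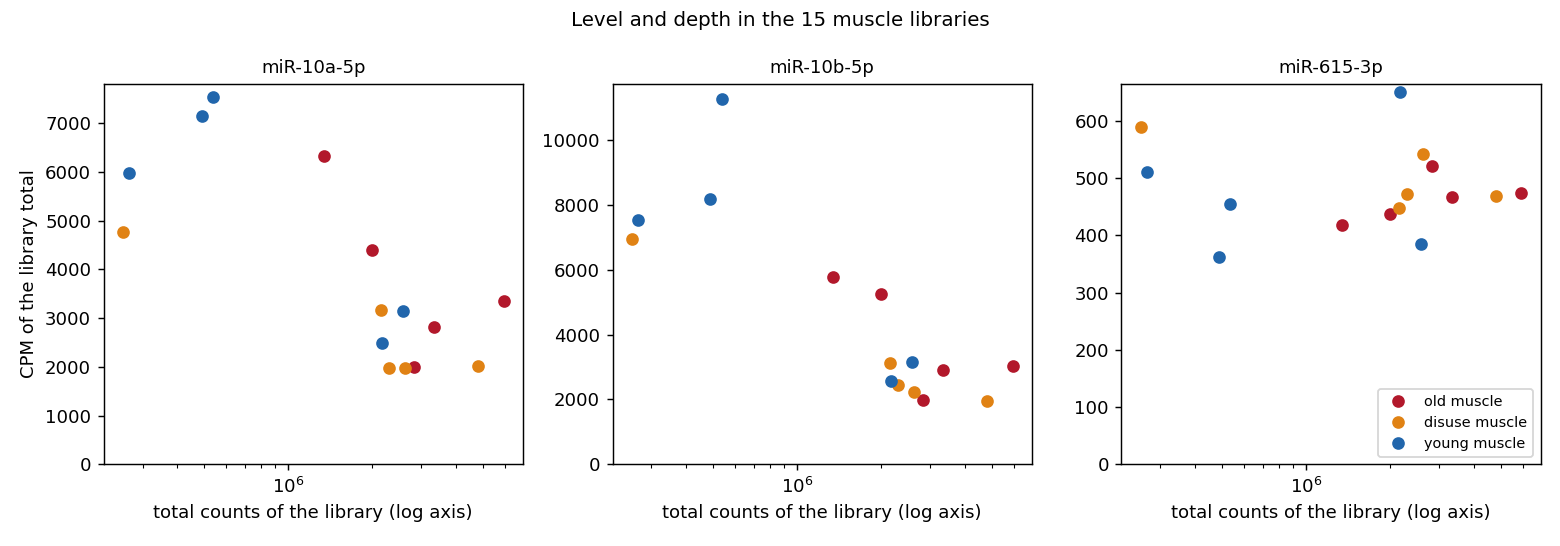
CPM of miR-10a-5p, miR-10b-5p and miR-615-3p against the total counts of each of the 15 muscle libraries (log axis), coloured by group. The 4 libraries under 1000000 counts hold 4 of the 5 highest miR-10a-5p values and the 4 highest miR-10b-5p values, and miR-615-3p shows no such split.

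Within serum only the miR-10 members passed the filter on low counts, and neither passed a comparison of groups by edgeR's test. For old against young serum 0 of the 2 tested passed, against a background of 9.7%, with 1 of 2 at an unadjusted p under 0.05 (23% of all) and 0 by DESeq2. The number of all miRNAs passing there, 16, fell to 9 without old serum 1 and to 1 without old serum 2. miR-10a-5p had 1.08 ± 0.42 (edgeR adjusted p = 0.118) and miR-10b-5p 0.20 ± 0.39. Leaving out any single library gave a miR-10a-5p difference of 0.74 to 1.42. Only the fit without young serum 5, the young library with the most miR-10a-5p, passed (1.42, edgeR adjusted p = 0.0365). With no filter on low counts the miR-10a-5p difference was 1.14 (edgeR adjusted p = 0.0192).

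For disuse against young serum 0 of 2 passed, against a background of 0%, with 0 at an unadjusted p under 0.05 (12.1% of all) and 0 by DESeq2; both members had 0.41, with SE 0.40 for miR-10a-5p and 0.37 for miR-10b-5p. For old against disuse serum 0 of 2 passed, against a background of 2.42%, with 0 at an unadjusted p under 0.05 (10.3% of all) and 0 by DESeq2. That background is 4 miRNAs, and the number was 3 without old serum 4 or disuse serum 1 and 0 or 1 without any other single library. miR-10a-5p had 0.68 ± 0.42 and miR-10b-5p -0.21 ± 0.39. The comparisons with young serum share the young libraries.

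**Figure D4:**
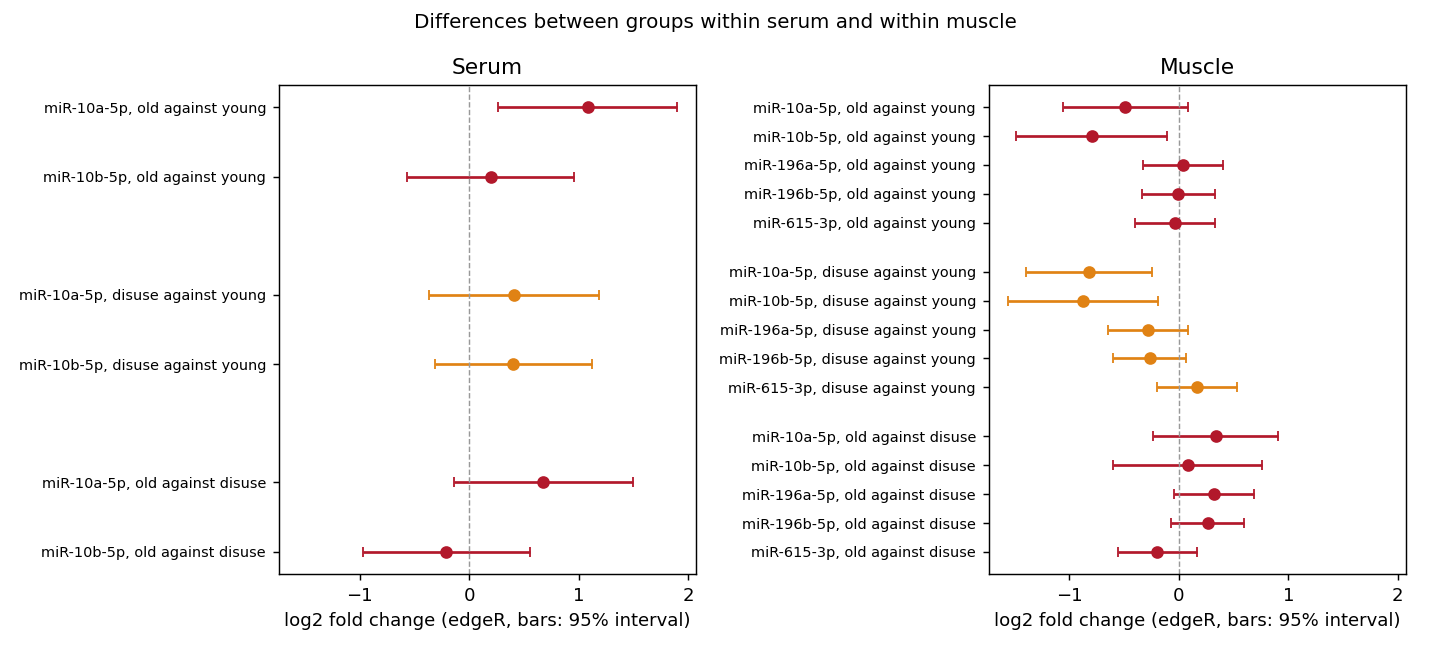
Log2 fold changes by edgeR of the HOX-cluster miRNAs tested within serum (left) and within muscle (right). Bars are 95% intervals from the SE by a normal approximation. None passed after adjustment; in serum miR-10a-5p in old against young mice has the largest value, 1.08, and in muscle the miR-10 members lie at -0.88 to -0.49 against young mice.

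By group median, miR-10a-5p had 111213 CPM in old, 66364 CPM in disuse and 47611 CPM in young serum. Several marker lists were also highest in old serum by group median. The gut and kidney list had 27883 CPM in old, 12843 CPM in disuse and 12704 CPM in young serum. In the same order the epithelium list had 9775, 6979 and 6278 CPM, and hepatocyte miR-122-5p had 1620, 1244 and 1465 CPM. The lists for striated muscle, erythrocytes, leukocytes, endothelium, and fibroblasts with smooth muscle were not highest in old serum. In old serum 1 to 4 the gut and kidney sum was 33360, 26154, 29613 and 17886 CPM. In these libraries miR-10a-5p had 117281, 129997, 62617 and 105144 CPM. Whether any marker list followed miR-10a-5p from library to library was not tested. The summed level of 3 gut and kidney miRNAs (miR-192-5p, miR-194-5p and miR-215-5p, all detected) was 17886 to 33360 CPM in old serum, 9552 to 18001 CPM in disuse serum and 9023 to 18322 CPM in young serum. The summed level of the 3 erythrocyte miRNAs was 4150 to 8347 CPM in old, 8579 to 12804 CPM in disuse and 7661 to 25311 CPM in young serum. The 25311 CPM was in young serum 1, which had the lowest miR-10a-5p (19355 CPM) and miR-10b-5p (38546 CPM) in serum. Young serum 4, next lowest in both (34719 and 43030 CPM), had the lowest erythrocyte sum of the young group, 7661 CPM. The part of these marker miRNAs in the result was not tested. In serum, less of a miRNA per source cell and fewer cells that release it cannot be told apart, and in muscle the same holds for cell number and RNA per cell.

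The serum levels of the other 3 members were too low for the filter. With no filter, miR-615-3p in disuse against young serum had 2.04 ± 0.71 on the log2 scale (edgeR adjusted p = 0.333). Its levels were 16.9 to 70.2 CPM in disuse and 3.44 to 14.5 CPM in young serum. Each young library held 1 or 2 counts, and the lowest disuse library, disuse serum 5, held 3. In the same unfiltered test, old against disuse serum had an adjusted p of 0.406 (edgeR) for miR-196a-5p, with 0 counts in old against 13 in disuse serum, and for miR-196b-5p, with 1 count in old against 22 in disuse serum.

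An interaction term fitted to all 29 libraries asked whether serum and muscle changed by unequal amounts with age or with disuse. For age 0 of 5 passed by edgeR's test, against a background of 0.83%, with 3 of 5 at an unadjusted p under 0.05 (14.1% of all) and 0 by DESeq2. The fits within each source gave old against young changes of 1.08 in serum and -0.49 in muscle for miR-10a-5p. For miR-10b-5p they gave 0.20 in serum and -0.80 in muscle, so the muscle change was the larger. The signed serum change minus the muscle change was 1.66 ± 0.53 on the log2 scale for miR-10a-5p (edgeR adjusted p = 0.113). For miR-10b-5p it was 1.09 ± 0.56 (edgeR adjusted p = 0.359). With only the muscle libraries over 1000000 counts these were 0.81 (edgeR adjusted p = 0.572) and -0.08 (edgeR adjusted p = 0.981). For disuse 0 of 5 passed, against a background of 0%, with 5 of 5 at an unadjusted p under 0.05 (9.96% of all) and 0 by DESeq2. In both counts the 3 members other than the miR-10 pair entered through muscle and rest on a few serum counts, so their interactions are not given.

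The disuse interaction was 1.43 ± 0.52 for miR-10a-5p and 1.49 ± 0.55 for miR-10b-5p, each with an edgeR adjusted p of 0.275. With only the deeper muscle libraries the values were 0.72 and 0.65. Leaving out any single library gave a miR-10a-5p age interaction of 1.21 to 2.14. It passed without old serum 3 (2.14, edgeR adjusted p = 0.0265) and without young muscle 5 (1.90, edgeR adjusted p = 0.0479), and without no other single library. With no filter on low counts the miR-10a-5p age interaction also passed (1.60, edgeR adjusted p = 0.00699). With no filter the disuse interaction also passed for miR-10a-5p and miR-10b-5p, which was at 1.55, each with an edgeR adjusted p of 0.0169.

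The opposite arms of the hairpins were rare. miR-10a-3p made up 14 counts in serum, 0.00899% of the counts of its hairpin's arms (95% Clopper-Pearson interval 0.00491 to 0.0151), and 58 counts in muscle, 0.0565% (0.0429 to 0.0730). miR-10b-3p made up 14 counts in serum, 0.00673% (0.00368 to 0.0113), and 26 in muscle, 0.0243% (0.0159 to 0.0357). For Mir615 the 5p arm made up 4 counts in serum, 7.14% (1.98 to 17.3), and 123 in muscle, 0.756% (0.628 to 0.901). miR-196b-3p had 1 count over all serum libraries and 5 over all muscle libraries, and miR-196a-1-3p had 4 in serum and 0 in muscle. The entry of miR-196a-2-3p lacks a value for a library and was not used here.

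The nearest relatives by sequence outside the Hox clusters, miR-99a-5p, miR-99b-5p and miR-100-5p, share another seed, ACCCGUA, and did not show the serum levels of the miR-10 pair. The sequence of miR-100-5p is shown for comparison with miR-10a-5p, with its seed in capitals; set against miR-10a-5p starting at the second base of miR-10a-5p and with no gap, 19 of 22 positions are the same.

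miR-100-5p: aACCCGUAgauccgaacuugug

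miR-100-5p had 1056 ± 461 CPM in old serum (SD, n = 4), 1416 ± 559 in disuse serum and 1443 ± 465 in young serum, against 1880 ± 342, 1678 ± 88.2 and 1656 ± 368 CPM in old, disuse and young muscle (SD, n = 5 each). Serum was lower than muscle by edgeR's test, with -1.33 ± 0.28 in old (adjusted p = 0.000234), -0.73 ± 0.20 in disuse (adjusted p = 0.00235) and -0.74 ± 0.31 in young mice (adjusted p = 0.0386). miR-99a-5p had 0.15 ± 0.27 in the old comparison (edgeR adjusted p = 0.603), 0.86 ± 0.21 in disuse (edgeR adjusted p = 0.00114) and 1.32 ± 0.35 in young mice (edgeR adjusted p = 0.00187). For miR-99b-5p the values were -1.23 ± 0.24 in old (edgeR adjusted p = 0.000138), -0.85 ± 0.21 in disuse (edgeR adjusted p = 0.00135) and -0.79 ± 0.35 in young mice (edgeR adjusted p = 0.0501). In old against young serum miR-99a-5p had -0.98 ± 0.31 (edgeR adjusted p = 0.0508), while miR-10a-5p had 1.08.

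Members of a pair were correlated across libraries. Over the 15 muscle libraries Pearson's r of log2 CPM was 0.96 between miR-10a-5p and miR-10b-5p and 0.81 between miR-196a-5p and miR-196b-5p, and over the 14 serum libraries it was 0.84 between the miR-10 members. miR-615-3p ran against the miR-196 pair in muscle, with r = -0.78 to miR-196a-5p and -0.71 to miR-196b-5p. Among 341 miRNAs in muscle, those most like miR-10a-5p after its partner were miR-30a-5p (r = 0.92) and miR-186-5p (r = 0.85), and those most like miR-10b-5p were miR-30a-5p (r = 0.92) and miR-19b-3p (r = 0.91). The nearest to miR-196a-5p besides miR-196b-5p were miR-155-5p (r = 0.82) and let-7j (r = 0.79), and to miR-196b-5p they were miR-30e-5p and miR-155-5p (r = 0.76 each). miR-139-3p (r = 0.80), let-7i-3p (r = 0.77) and miR-22-3p (r = 0.70) were nearest to miR-615-3p. Among 165 miRNAs in serum the nearest to miR-10a-5p were miR-342-3p (r = 0.94) and miR-501-3p (r = 0.90), and to miR-10b-5p, after its partner, miR-501-3p (r = 0.82) and miR-23a-3p (r = 0.79). These correlations are descriptions over libraries that share depth, scaling and group, and have no p.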

How the data were processed

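The authors deposited raw counts of reads for each mature miRNA in each library. Per the submitters' processing notes, Bowtie and mm10 were used; neither a Bowtie version nor a rule for assigning reads was found in the labels. Of 1183 miRNAs, 695 had a value for all 29 libraries and were used. The other 488 lack a cell and entered only an alternative. There the missing cell was assumed to be a leading serum value and was set to 0. Columns with no sample numbered 0. All 56 pairs of libraries within groups differed beyond counting noise (lowest chi-square over degrees of freedom 13.4).

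Fold changes came from edgeR 4.0.16 (glmQLFTest, TMM, filterByExpr by group with a minimum count of 10, Benjamini-Hochberg) in R 4.3.3: muscle groups together, serum groups together, serum against muscle within a condition, and interactions over all libraries. SE is the log2 fold change over the square root of F. CPM use plain library totals, with a scale of 1000000. Ratios used a pseudocount of 0.5. Tests were also run on simulated counts with the same spread for all miRNAs, a simpler setting than these libraries, and no result here rests on that run. DESeq2 1.42.0, other scalings and filters, and left-out libraries were alternatives. Loci come from GENCODE, sequences from RefSeq. Named miRNAs are the members, opposite arms, relatives and nearest miRNAs by r. Members and lists were chosen with earlier results of these data known.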

Additional observations from a re-analysis of the deposited data

Results flagged for a closer look

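Of 41 groups of 4 or 5 libraries tested for a library far from the others, 5 held one by Dixon's criterion. Chance gives about 1 in 20 only for independent, normally distributed values. Low counts, and levels and ratios that share a miRNA, are not such values, so 5 of 41 is not read as an excess. In disuse muscle 3, a library under 1000000 counts, miR-10b-5p had 6940 CPM, with the next disuse library at 3121. The same library had a log2 ratio of miR-10b-5p to the miR-196 pair of 1.65, with the next at 0.20. In disuse muscle 1, miR-196a-5p had 2691 CPM, with the next at 2007. In old muscle 4 the log2 ratio of miR-196b-5p to miR-196a-5p was -3.53, with the next at -3.14. In old serum 3, miR-196b-5p had 5.65 CPM, a single count, where the other old serum libraries had 0.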

How the results depend on the processing

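Both miR-10 members passed serum against muscle in each condition under every alternative run. Without the filter on low counts, 1 member passed old against young serum, 1 the age and 2 the disuse interaction; leaving out a library gave 0 to 1 for old against young serum and for the age interaction. With only the deeper muscle libraries, the values for old against young muscle were 0.33 (miR-10a-5p), 0.30 (miR-10b-5p) and 0.12 (miR-196b-5p), for miR-615-3p in disuse against young muscle -0.042, and for miR-10b-5p in the age interaction -0.084.

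Values near 0 changed sign elsewhere; the cause was not tested. miR-196b-5p in old against young muscle was 0.0083 with library totals, 0.0071 by DESeq2, 0.070 with no filter, 0.048 with the pair summed, 0.059 with the incomplete miRNAs and 0.00058 with only these groups. miR-615-3p there was 0.046 with no filter and 0.031 with the incomplete miRNAs. Upper-quartile factors gave -0.15 for miR-196a-5p in old against young muscle and -0.019 for miR-615-3p in disuse against young muscle, and moved the median of all miRNAs to -0.21 and -0.19. miR-10b-5p in old against disuse serum was 0.20 with the pair summed.

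Leaving out a library gave log2 values of -0.029 to 0.18 for miR-196a-5p, -0.029 to 0.12 for miR-196b-5p and -0.097 to 0.21 for miR-615-3p in old against young muscle, and of -0.058 to 0.60 in muscle and -0.34 to 0.021 in serum for miR-10b-5p in old against disuse. The miR-10 ratio ran from -0.13 to 0.042 in disuse against young muscle, -0.14 to 0.047 in disuse against young serum and -0.21 to 0.0041 in old serum against old muscle. The miR-196 ratio ran from -0.11 to 0.036 in old against young, -0.074 to 0.075 in disuse against young and -0.079 to 0.047 in old against disuse muscle. The ratio of miR-10b-5p to miR-196 ran from -0.27 to 0.18 in old against disuse muscle.

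Counts of all miRNAs moved by over 1.5 times. Old against young muscle (20) had 36 with upper-quartile factors and 8 thinned to the shallowest library. Disuse against young muscle (1) had 0 thinned and 2 with upper-quartile factors, no filter, the incomplete miRNAs or only these groups. Old against disuse muscle (12) had 6 thinned. Old against young serum (16) had 5 with library totals, 8 thinned and 6 with only these groups. Leaving out a library gave 1 to 20, with 1 without old serum 2. Disuse against young serum (0) had 5 with no filter, and old against disuse serum (4) had 0 with library totals and 0 to 3 without a library, with 0 in 6 of 9. Serum against muscle had 96 thinned in old (219) and young (145), and with no filter 327 in disuse (166) and 270 in young. The age interaction (2) had 5 with upper-quartile factors, 12 by DESeq2, 6 with no filter, 0 thinned, 0 with the deeper libraries and 1 to 9 without a library, and the disuse interaction (0) had 5 with no filter.

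Whether replicate numbers pair the serum libraries is not known. Same-numbered libraries of old and young serum correlated between -0.32 and 0.55, and those of old and disuse serum between -0.08 and 0.35. Old serum 1 and 2 matched the same-numbered young library best, and old serum 3 and 4 did not. Old serum 1, 2 and 4 matched the same-numbered disuse library best, and old serum 3 did not. With a replicate block the counts of members were as without it; miR-10a-5p in old against young serum was 1.32 (edgeR adjusted p = 0.0508), all miRNAs passing were 0 for disuse against young muscle, 0 for old against disuse serum and 1 for the age interaction. In serum, a few counts per library limit miR-196 and miR-615-3p.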
